A study of Bos taurus with 28 samples.

Results

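A set of 176 transcripts was picked out of 28054 measured in bovine conceptuses. Its day medians were high in the blastocyst and far lower in the conceptus from the start of elongation onwards. The members were chosen by their measured levels on days 7, 13, 16 and 19: a transcript was included when its median on day 7 was at least 10 RPKM (the reads of a transcript scaled to its length in kilobases and to the size of the library) and at least 4 times its median on each of days 13, 16 and 19. The day 10 level played no part in the choice. Of 7602 transcripts with a day 7 median of at least 10 RPKM, 2.32% met the rule. The fall from day 7 to days 13, 16 and 19 therefore defines the set and is given below as a description that supports nothing.

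All conceptuses came from oestrus-synchronised crossbred beef heifers of about 18 months, inseminated with semen of 1 bull. Day 7 was the blastocyst and day 10 the hatched sphere; for both, the heifers were superovulated and each library held a pool of 5 embryos. Day 13 was the ovoid conceptus at the start of elongation, which the protocols describe as single conceptuses without superovulation and the sample labels as superovulated pools. Day 16 was the filament at the time when the mother recognises the pregnancy, and day 19 the filament that begins to implant; both were single conceptuses from heifers that were not superovulated. Polyadenylated RNA was taken directly from days 7, 10 and 13 and by way of total RNA from days 16 and 19. Stage and RNA preparation therefore cannot be told apart when day 7, 10 or 13 is set against day 16 or 19. Nor can stage, pooling and superovulation be told apart between the pooled and the single stages.

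As background, the blastocyst is a hollow sphere with an inner cell mass, from which the embryo proper forms, and an outer trophectoderm, the first epithelium of the placenta. In cattle it hatches from the zona pellucida, stays free in the uterus as a sphere, and then becomes ovoid and elongates into a filament by growth of the trophectoderm and the underlying endoderm before it attaches. RNA of the early embryo includes transcripts that are switched off, diluted or degraded over these stages. A whole conceptus was sequenced here, so fewer cells of a type and less RNA per cell cannot be told apart. No gene name stands beside a transcript identifier in the deposited data, and none of the 37063 genes in the RefSeq table of assembly ARS-UCD2.0 carries an Ensembl identifier, so no match could be made. Members are therefore described by identifier, without a gene role, and lists of marker genes were not used here.

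The labelled groups were uneven in depth, and several libraries stood apart. The days had 5, 7, 5, 3 and 4 replicates in order of age, and their totals ran from 473552 to 10871501 reads. A single 92-nucleotide transcript took 34.3% of the reads of day 7 replicate 5 and 38.4% of those of day 10 replicate 7, against at most 5.11% elsewhere, which lowers every other RPKM value in both libraries. The left-out libraries were those labelled day 7 replicate 6, day 16 replicate 5 and day 19 replicate 5, whose files carry the title of a sample of another day; the other day 7 and day 19 files carry the title of another sample of the same day. Day 16 replicates 2 and 3 were averaged into 1 replicate.

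The 176 transcripts had a median of 35.3 RPKM on day 7, with quartiles of 16.7 and 99.6 and a highest value of 1153. Across the set the median of the day medians was 7.90 RPKM in the hatched sphere, 3.21 RPKM at the ovoid stage, and 2.69 and 1.22 RPKM in the day 16 and day 19 filaments. The number of members at or above 10 RPKM fell from 176 on day 7 to 73, 43, 28 and 23 on the following days. On day 7, 44 members stood at or above 100 RPKM, and on day 19, 1 did. The medians fell at each step from day 7 to day 10 and from day 10 to day 13 in 152 of the 176. The highest of the 3 late medians lay on day 13 for 76 members, on day 16 for 72 and on day 19 for 19, and 9 had a median of 0 on all 3 days. Single replicates were less apart than the medians. In most members at least 1 day 7 replicate lay at or below a day 13 replicate, and likewise for day 16. For day 19 this held in a minority of members. With day 7 replicate 5 left out, it held in a minority of members for each of days 13, 16 and 19.

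Many members lay close to the limit of 4. The ratio of the day 7 median to the highest late median was 6.26 in the middle of the members with a late median above 0, and 52 had a ratio under 5. In 48 members it was at least 10 or all late medians were 0. The members nearest the limit had ratios of 4.01 and 4.02, while the nearest transcripts outside had 3.98 and 3.98. At the limit on the level, the lowest members had day 7 medians of 10.04 and 10.17 RPKM, and the closest transcripts outside had 9.88 and 9.77.

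Summed over the 5 day 7 replicates, a member had between 8 and 35822 reads, with a median of 768. In 165 members at least 3 day 7 replicates held 10 reads or more, and 144 had a read in all 5. All 176 reached 1 RPKM in at least 4 replicates outside day 7 as well, so none entered the tests through day 7 alone. Lengths recovered from the RPKM values ran from 80 to 6316 nucleotides with a median of 1326, below the median of 1768 of the 7426 other transcripts at or above 10 RPKM on day 7, and the quartiles of both sets overlapped (844 and 2084 against 1151 and 2577). Under 300 nucleotides were 13 members.

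**Figure D1:**
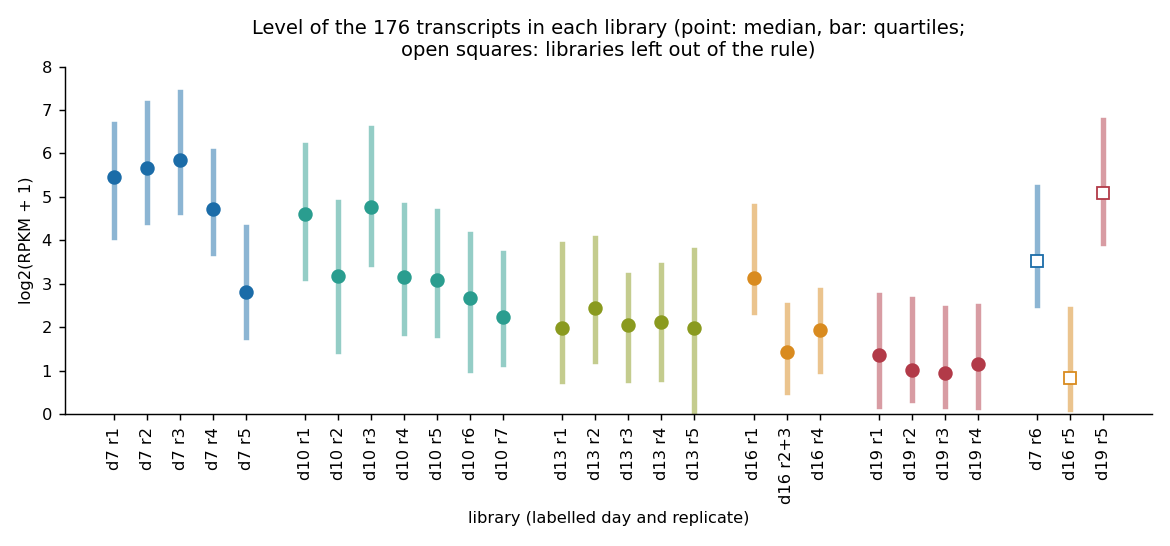
Level of the 176 transcripts in every library, as log2(RPKM + 1). Each point is the median over the transcripts and each bar spans their quartiles; libraries are ordered by labelled day and replicate, d16 r2+3 is the mean of 2 libraries, and open squares are the 3 libraries left out of the rule. Day 10 replicates 1 and 3 (4.61 and 4.76) lie near day 7 replicate 4 (4.72), day 16 replicate 1 (3.13) lies above the other 2 replicates of its day, and the library labelled day 19 replicate 5 lies at 5.08.

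Within day 7 the replicates did not carry the set at 1 level. The median over the 176 members was 42.9, 49.5, 56.3 and 25.4 RPKM in replicates 1 to 4 and 6.05 RPKM in replicate 5. The set took 2.19, 3.14, 4.51, 1.69 and 0.588% of all reads in the same order, so replicates 3 and 5 marked the ends. Replicate 5 was the lowest of the 5 in 152 members (86.4%) and the highest in 8; among the 7426 other transcripts it was the lowest in 51.9%. It was also the shallowest library, with 473552 reads, and rich in the 92-nucleotide transcript, and without the reads of that transcript the set took 0.895% there. The part of either in the low level was not tested. In the middle member the SD between day 7 replicates was 1.55 on the log2(RPKM + 1) scale, against 0.70 in the middle one of the other transcripts.

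On day 10, the stage left free by the rule, most members had a median below 50% of their blastocyst level. The day 10 median was 25% or less of the day 7 median in 97 members (55.1%), between 25 and 50% in 56 (31.8%) and at least 50% in 23 (13.07%). None reached double its day 7 median, and 4 exceeded it. The share at 25% or less was 43.8% without day 10 replicate 7, 1 of the libraries rich in the 92-nucleotide transcript, and 31.3% of the 230 transcripts that met the rule with means in place of medians. The middle member was at 22.8% of its day 7 median, with quartiles of 12.8 and 37.7%. Of the 7426 other transcripts with a day 7 median of at least 10 RPKM, 6829 kept at least 50% on day 10. Among these 7426, 78 (1.05%) stood at 25% or less, 3170 exceeded their day 7 median and 275 reached double it. The members were chosen for high day 7 values, which by itself pulls this ratio down, so the contrast with the other transcripts is a description.

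**Figure D2:**
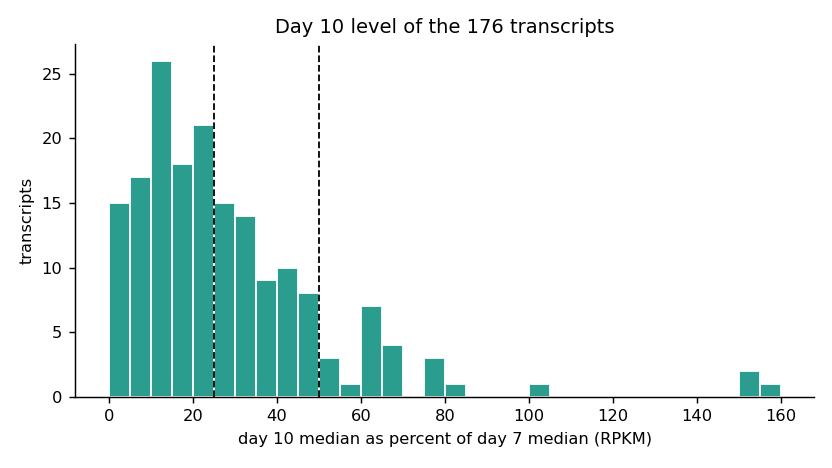
Number of the 176 transcripts by day 10 median as a percentage of the day 7 median (RPKM), in steps of 5 points. Dashed lines mark 25 and 50%; 97 transcripts lie at or below the first, 23 at or above the second, and 4 above 100%.

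The day 10 pools disagreed with each other about these transcripts. The members' median was 23.4 RPKM in replicate 1 and 26.0 RPKM in replicate 3. In the other 5 it was 8.04, 7.88, 7.49, 5.37 and 3.68 RPKM. As a share of the day 7 median, the middle member stood at 63.0% in replicate 1 and 75.4% in replicate 3, whereas the other 5 pools ran from 9.25 to 23.4%. Replicate 3 was the highest of the 7 in 78 members and replicate 1 in 60. Replicates 1 and 3 held 1016135 and 2646377 reads and the other 5 between 640839 and 5202316. The part of depth in these differences was not tested. Replicates 1 and 3 lay near day 7 replicate 4, replicates 2, 4 and 5 just above day 7 replicate 5, and replicates 6 and 7 below every day 7 replicate.

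The 3 day 10 classes are cut on the day 10 values, and their levels are given without a test. The 97 members at 25% or less had medians of 3.70, 1.41, 2.05 and 0.456 RPKM on days 10, 13, 16 and 19, with day 16 above day 13. The 56 intermediate members stood at 16.0, 6.44, 4.28 and 3.71 RPKM on these days. The 23 that kept at least 50% stood at 23.9, 4.93, 2.67 and 2.45 RPKM, from the lowest day 7 median of the 3 classes (28.2 RPKM, against 49.4 and 34.5). In the first class replicates 1 and 3 were at 21.2 and 21.5 RPKM and the other 5 at 2.00 to 3.84. In the last class they were at 22.2 and 49.4 RPKM and the other 5 at 14.5 to 24.6. The next shares are of sets chosen anew by the rule without the libraries named. The share that kept at least 50% was 5.81% of 241 transcripts when day 7 replicate 5 was left out. It was 7.61% of 184 when day 7 replicate 1 was. It was 8.48% of 224 without day 7 replicate 5, day 10 replicate 7 and day 13 replicate 5, the shallowest of its day. These 3 are called the libraries that stood apart. Over the members, day 13 replicate 5 had a median of 2.97 RPKM, within its day's range of 2.95 to 4.43.

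Levels were also compared between days with limma on log2(RPKM + 1), over the 19186 transcripts that reached 1 RPKM in 4 or more replicates. Calls needed both a log2 change of 1 or more and a p-value below 0.05 after Benjamini-Hochberg adjustment. From day 7 to day 10, limma called none of the 176 members, where 0% of all tested transcripts were called lower and 0.00521% higher. An unadjusted limma p under 0.05 was found for 94 members (53.4%) and for 9.53% of all tested. Voom on the recovered reads called 25 members lower, and 0.287% of all tested. The estimated change was below 0 in 173 of the 176, with a median of -1.47 against -0.04 over all tested. Leaving out day 7 replicate 5 gave 25 lower calls among the members and 0.393% among all tested. Leaving out day 10 replicate 1, 3 or 7 gave 4, 3 or 2 members, with 0.0637, 0.0577 and 0.0581% of all tested. Without the 3 libraries that stood apart there were 23, with 0.581% of all tested. The day 7 side of this comparison was fixed by the rule, so nothing is read from these counts.

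From day 10 to day 13, where the rule fixed the day 13 side, limma called 4 members lower (2.27%) and none higher. Of all tested transcripts, 0.532% were called lower and 0.662% higher. In all, 58 members (33%) and 12.8% of all tested had an unadjusted limma p under 0.05. The count of 4 was 1 without day 13 replicate 1 or replicate 3, where 0.215 and 0.22% of all tested were called lower. It was 13 without the 3 libraries that stood apart (1.57% of all tested) and 20 by voom (2.04%).

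The rule's own comparisons had their direction fixed by the choice of members, and limma's counts for them are given as a description. It called 88 members (50%) lower on day 13 than on day 7, where 1.68% of all tested transcripts were called lower. It called 56 (31.8%) lower on day 16, against 1.32% of all tested, and 127 (72.2%) lower on day 19, against 3.51%. No member was called higher on days 13, 16 or 19, where 2.36, 3.01 and 3.28% of all tested were. Nothing is read from these counts, which moved with single libraries. The share of all tested called lower moved as well and is given in brackets. The count for day 13 was 53 (1.01%) or 51 (1.11%) when day 7 replicate 2 or 3 was left out. It was 56 (0.996%) when day 13 replicate 4 was. For day 16 it was 0 (0%) when day 16 replicate 4 was left out and 2 (0.0158%) when replicates 2 and 3 were. Leaving out day 7 replicate 3, 4 or 5 gave 23 (0.536%), 37 (0.724%) or 111 (3.29%).

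**Figure D3:**
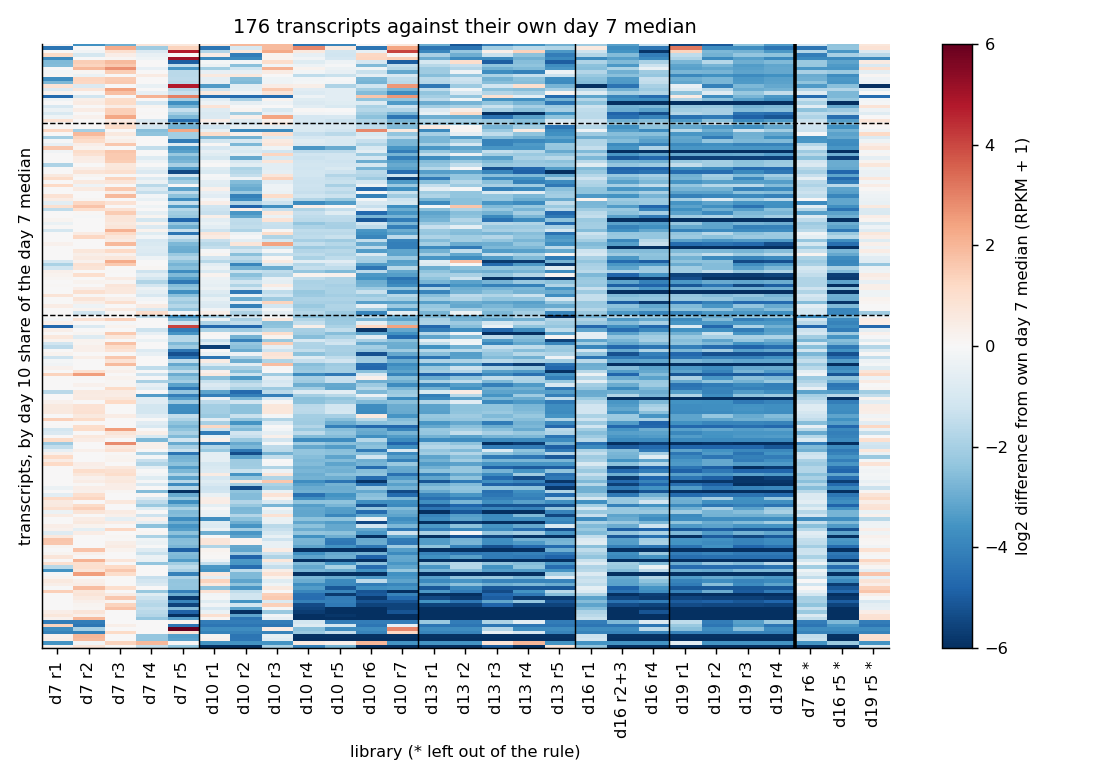
Each row is 1 of the 176 transcripts and each column a library; colour gives the log2 difference of RPKM + 1 from the transcript's own day 7 median (scale cut at -6 and 6). Rows are sorted by the day 10 share, dashed lines separate the 23, 56 and 97 transcripts of the 3 day 10 classes, and the 3 columns after the thick line were left out of the rule. Day 10 replicates 1 and 3 and day 16 replicate 1 are paler than their neighbours, and the library labelled day 19 replicate 5 resembles the day 7 columns.

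Among the late stages, whose order the rule did not fix, few members were called. From day 13 to day 16 limma called 2 of 176 higher (1.14%, against 5.06% of all tested) and 3 lower (1.70%, against 2.24%). From day 13 to day 19 it called 2 higher (1.14%, against 3.22%) and 10 lower (5.68%, against 3.14%). From day 16 to day 19 it called none, where 0% of all tested were called higher and 0.235% lower. An unadjusted limma p under 0.05 was found for 12 members (6.82%) and 6.75% of all tested, and voom called 2 members and 4.65% of all tested lower. No count here is read as particular to the set. The median change over the members was 0.02 from day 13 to day 16, -0.53 from day 13 to day 19 and -0.70 from day 16 to day 19, and over all tested transcripts 0.05, -0.17 and -0.17. The 3 lower calls of day 16 were 0 without day 16 replicate 4 (0.644% of all tested), 0 without replicates 2 and 3 (0.791%), 1 without day 13 replicate 3 (1.34%) and 6 without day 16 replicate 1 (0.977%). Leaving out day 7 replicate 1 gave 1 member, and 1.33% of all tested, lower on day 19 than on day 16.

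The share of all reads held by the 176 members on the late days is given without a test, since these days' levels entered the rule. It was 0.465 ± 0.318% on day 13 (SD, n = 5), 0.308 ± 0.244% on day 16 (n = 3) and 0.196 ± 0.0571% on day 19 (n = 4). The values of the 3 days overlapped. Without day 16 replicate 1, day 19 stood 0.0285 percentage points above day 16. On day 13 replicate 2 held 1.01% and the other 4 replicates 0.244 to 0.473%.

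A rise after day 13 was called for a pair of members. ENSBTAT00000021456 (2253 nucleotides) was at 213, 322, 295, 148 and 27.2 RPKM in day 7 replicates 1 to 5. On day 10 it ran from 3.99 to 158 RPKM with a median of 23.3, and in day 13 replicates 1 to 5 it was at 1.16, 3.29, 1.24, 0.165 and 12.2 RPKM. It then stood at 56.7, 45.0 and 30.6 RPKM in the 3 day 16 replicates and at 38.6, 26.5, 34.3 and 50.02 RPKM on day 19. Every day 16 and day 19 replicate lay above every day 13 replicate, and the day 19 values overlapped those of day 7 only at replicate 5. The log2 change was 3.79 ± 0.86 (SE, limma, adjusted p = 0.00730) from day 13 to day 16 and 3.56 ± 0.79 (limma adjusted p = 0.00523) from day 13 to day 19.

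ENSBTAT00000009478 (1823 nucleotides) followed the same course. It was at 130 ± 77.0 RPKM on day 7 (SD, n = 5), 35.9 ± 39.8 on day 10 (n = 7), 2.34 ± 2.86 on day 13 (n = 5), 26.5 ± 0.641 on day 16 (n = 3) and 25.1 ± 6.70 on day 19 (n = 4). Its day 13 values, 0.928, 2.86, 0.592, 0.204 and 7.12 RPKM, lay below all replicates of days 16 and 19. The limma log2 change was 3.41 ± 0.78 (SE, adjusted p = 0.00781) to day 16 and 3.30 ± 0.72 (adjusted p = 0.00454) to day 19. The Pearson correlation of the pair over the 28 libraries was 0.992 on log2(RPKM + 1), so they may be transcripts of 1 gene or share reads, which was not tested. These calls were made in each of the 33 alternatives run for either transcript. Both were also called lower on day 13 than on day 10 (log2 change -3.30 and -3.12, limma adjusted p = 0.0146 and 0.0108). The other 2 members called in that comparison had -2.03 and -1.69. The rule fixed its day 13 side, so nothing is read from these values.

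Other members kept an intermediate level on day 13 and were lost after it. ENSBTAT00000016392 (792 nucleotides) was at 377, 936, 1377, 441 and 45.3 RPKM in day 7 replicates 1 to 5 and had a day 10 median of 198 RPKM (lowest 24.1, highest 313). On day 13 it stood at 86.6, 64.9, 163, 134 and 53.3 RPKM. On day 16 it was at 68.7 RPKM in replicate 1, 0.369 RPKM in the mean of replicates 2 and 3, and without a read in replicate 4; on day 19 it had 2 reads, both in replicate 4. The day 19 replicates thus all lay below the lowest day 13 value, while day 16 replicate 1 lay among the day 13 values. The log2 change was -6.46 ± 0.94 (SE, limma, adjusted p = 0.000111) from day 13 to day 19. From day 13 to day 16 it was -4.35 ± 1.02 (limma adjusted p = 0.00922), a call lost without day 16 replicate 4 (-3.25, adjusted p = 0.129) and without replicates 2 and 3 (-3.48, adjusted p = 0.087). Over its 33 alternatives the adjusted p ran from 0.000321 to 0.129.

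ENSBTAT00000022731 (1596 nucleotides) was at 457, 666, 741, 278 and 45.0 RPKM on day 7 and at 30.1, 47.5, 70.0, 56.5 and 157 RPKM in day 13 replicates 1 to 5. It had 98.1 RPKM in day 16 replicate 1, no read in the other 2 day 16 replicates, and 1 read in all of day 19. The limma log2 change from day 13 to day 19 was -5.95 ± 0.95 (SE, adjusted p = 0.000337). From day 13 to day 16 it was -3.76 ± 1.04 (limma adjusted p = 0.0259), and the call was lost when day 16 replicate 4 (-2.65, adjusted p = 0.251), day 16 replicates 2 and 3 (-2.65, adjusted p = 0.196) or day 13 replicate 3 (-3.72, adjusted p = 0.0505) was left out, and in a model of these 2 days alone (-3.76, adjusted p = 0.0821). Over its 33 alternatives the adjusted p ran from 0.000279 to 0.251. With all 28 libraries as labelled the change to day 19 also missed the call (-4.15, limma adjusted p = 0.0713, the highest of 33 alternatives, of which the lowest was 1.01e-05). Its values correlated at 0.99004 with those of 1 other member over the 28 libraries. In all, 17 members had a day 13 median of at least 1 RPKM and medians under 1 RPKM on days 16 and 19, and 9 members showed the opposite.

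**Figure D4:**
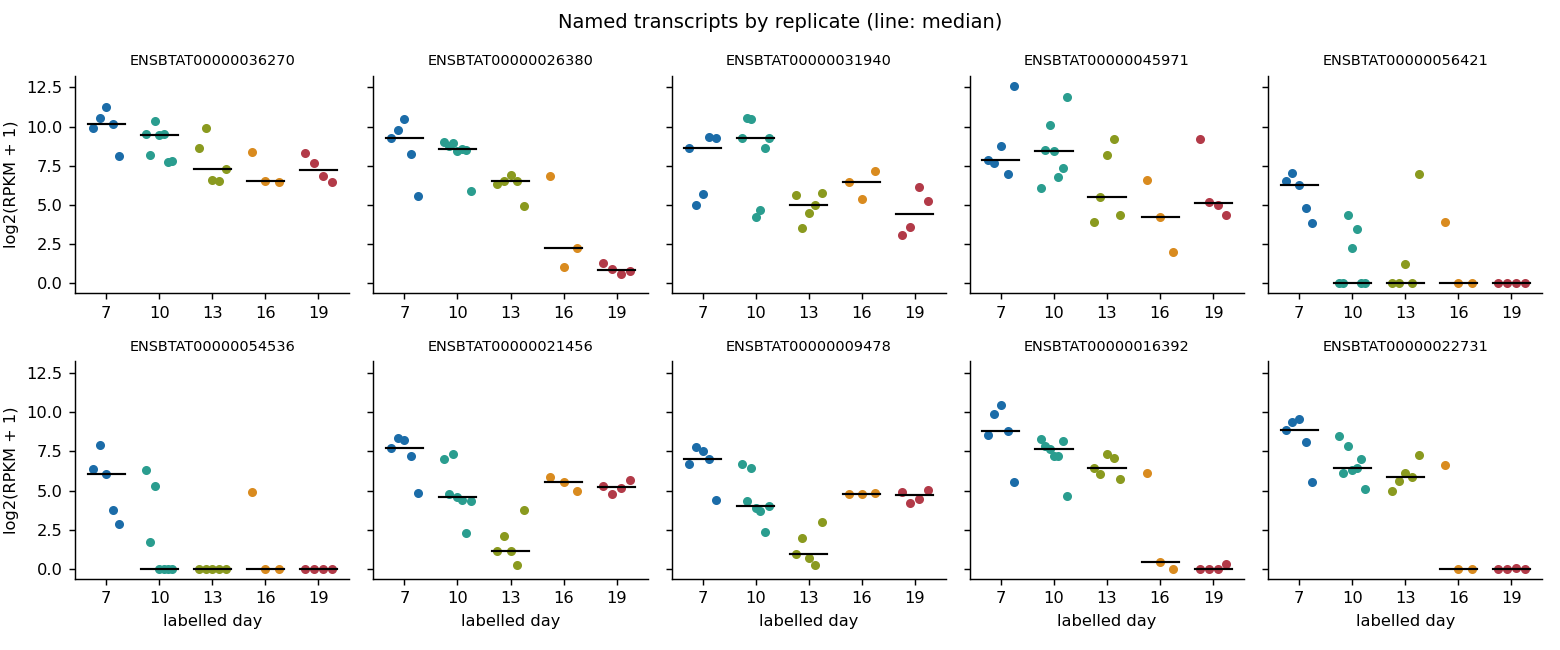
The 10 named transcripts by labelled day, as log2(RPKM + 1); each point is a replicate and each line the median of the day. ENSBTAT00000021456 and ENSBTAT00000009478 are lowest on day 13, while ENSBTAT00000016392, ENSBTAT00000022731 and ENSBTAT00000026380 hold a level on day 13 and have their lowest median on day 19 or days 16 and 19, with 1 high point on day 16 (replicate 1).

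The most abundant member on day 7, ENSBTAT00000036270 (2236 nucleotides), was at 976, 1484, 2458, 1153 and 279 RPKM in the 5 replicates. On day 10 it ran from 213 to 1314 RPKM with a median of 707. It was at 393, 960, 95.5, 90.1 and 159 RPKM on day 13, at 335, 91.0 and 89.0 RPKM on day 16 and at 317, 202, 114 and 87.8 RPKM on day 19. It kept at least 87.8 RPKM in every replicate used, and day 13 replicates 1 and 2, day 16 replicate 1 and day 19 replicate 1 lay above the lowest day 7 replicate. ENSBTAT00000026380 (1875 nucleotides), the next in abundance, was at 626, 870, 1403, 308 and 47.3 RPKM on day 7. Its day 10 values ran from 58.7 to 512 RPKM with a median of 381. It stood at 81.5 ± 32.5 RPKM on day 13 (SD, n = 5), at 112, 1.07 and 3.70 RPKM in the 3 day 16 replicates and at 0.905 ± 0.421 RPKM on day 19 (n = 4). Day 16 replicate 1 again lay within the day 13 range of 29.9 to 119 RPKM.

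Among well-read members, ENSBTAT00000031940 and ENSBTAT00000045971 had the highest day 10 level relative to day 7. ENSBTAT00000031940 (604 nucleotides) had a median of 388 RPKM on day 7 (lowest 30.7, highest 650) and of 612 RPKM on day 10, where its 7 values ran from 17.5 to 1514 RPKM. On day 13 it was at 32.9 ± 18.0 RPKM (SD, n = 5), on day 16 at 90.2 ± 51.0 (n = 3) and on day 19 at 31.8 ± 29.4 (n = 4). Its day 7 and day 10 values each spanned a wide range and overlapped. ENSBTAT00000045971 (164 nucleotides) had medians of 228 and 346 RPKM on days 7 and 10. It was highest in day 7 replicate 5, at 6232 RPKM, and in day 10 replicate 7, at 3811 RPKM, which are also the libraries where the 92-nucleotide transcript was most abundant; the other values on these days ran from 66.0 to 1092 RPKM. On day 13 it ran from 14.1 to 598 RPKM and on day 16 from 3.02 to 96.2 RPKM. On day 19 replicate 1 held 577 RPKM and the other 3 replicates 19.8 to 34.8 RPKM.

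At the other end, 9 members had a day 10 median of 0. Among members with at least 10 reads in at least 4 day 7 replicates, ENSBTAT00000056421 and ENSBTAT00000054536 had the largest log2(RPKM + 1) fall from day 7. Both had a day 10 median of 0, so the size of the fall follows from their day 7 level. ENSBTAT00000056421 (155 nucleotides) was at 89.5, 131, 77.7, 27.4 and 13.6 RPKM on day 7. It had a read in 3 of 7 day 10 replicates, at 3.79 to 19.5 RPKM, in 2 of 5 on day 13, at 1.39 RPKM in replicate 3 and 126 RPKM in replicate 5, and in 1 of 3 on day 16, at 14.0 RPKM in replicate 1. On day 19 it had no read in any replicate, and 3 reads over the whole day would have given 0.523 RPKM. The day 7 mean was 67.7 RPKM.

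ENSBTAT00000054536 (681 nucleotides) was at 83.5, 243, 65.3, 12.5 and 6.20 RPKM on day 7. On day 10 it was at 79.5 RPKM in replicate 1, 2.29 in replicate 2 and 38.3 in replicate 3, and without a read in the other 4. No read was found on day 13 or day 19, where 3 reads would have given 0.186 and 0.119 RPKM, and on day 16 replicate 1 held 28.7 RPKM and the other 2 replicates no read. Its values in the 28 libraries correlated at 0.9995 or more with those of 2 other members, so their reads may be split or counted for each, and the 3 are uncertain as separate measurements. In all, 23 members fell into 10 groups of 2 or 3 whose log2 values correlated at above 0.99 over the 28 libraries. The 176 transcripts may thus stand for fewer independent measurements, which was not tested.

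Day 16 replicate 1, whose file title matches its label, carried the set at a higher level than the other replicates of its day. The members' median was 7.76 RPKM there, 1.67 in the mean of replicates 2 and 3 and 2.82 in replicate 4. The 7.76 RPKM also lay above the 6.05 RPKM of day 7 replicate 5. Day 16 replicate 1 exceeded both other replicates of its day in 141 of 176 members (80.1%), and in 48.7% of the 7426 other transcripts. A group of 28 members, chosen after the values were seen, lay under 1 RPKM in every other replicate of days 16 and 19. The choice itself favours a higher value in replicate 1. In day 16 replicate 1, 25 of the 28 were at 1 RPKM or more. Among the 7426 other transcripts, 6 met the same late limits, and 4 of these were at 1 RPKM or more there. The middle one of the 28 members stood at 19.9% of its day 7 median, with quartiles of 13.23 and 32.6%. Over the 176 members the values of this library had Spearman correlations of 0.890 with the library labelled day 19 replicate 5, 0.860 with day 10 replicate 1, 0.856 with the library labelled day 7 replicate 6 and 0.836 with day 7 replicate 1, and of 0.421, 0.457 and 0.398 with day 16 replicates 2, 3 and 4; transcripts are not independent, and these values describe the libraries.

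The 3 libraries left out of the rule give the same measure in samples that did not choose the members. The library labelled day 19 replicate 5, whose file carries the title of a day 7 sample, had a median of 32.8 RPKM over the members, within the day 7 range of 6.05 to 56.3 and above the highest day 19 replicate (1.58). Its middle member stood at 93.0% of the day 7 median, and 153 of 176 were at 50% or more. The library labelled day 16 replicate 5, whose file carries the title of a day 19 sample, had a median of 0.772 RPKM, below every day 16 and day 19 replicate used, and its middle member was at 3.27% of the day 7 median. The library labelled day 7 replicate 6, whose file carries the title of a day 16 sample and a day 7 mark in its name, lay between these, with a median of 10.5 RPKM and a middle member at 30.3% of the day 7 median. Of the 28 members under 1 RPKM in the late replicates, 27 were at 1 RPKM or more in the library labelled day 19 replicate 5, 25 in that labelled day 7 replicate 6, and 0 in that labelled day 16 replicate 5. Of the 6 under the same late limits among the 7426 other transcripts with a day 7 median of at least 10 RPKM, it was 5, 5 and 0.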

How the data were processed

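The authors deposited RPKM values for 28054 transcripts, by Ensembl identifier, in 28 libraries. The submitters' processing notes name CASAVA but give neither its version nor its role. Aligner, build and annotation: not given in the sources used here. Values above 0 resolved into reads, a transcript length and a library total. Reads, lengths and totals were recovered from this, and 100% of values came out whole within a relative tolerance of 1e-06. Intervals and floors cover counting error only.

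Samples were grouped by labelled day. The 3 libraries whose file carries a title of another day were left out, and day 16 replicates 2 and 3 were averaged, which left 24 replicates. The labels' protocols call the replicates of a stage biological and independently processed but do not tie libraries to heifers. Replicates are numbered in accession order.

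The transcripts, the rule and the lists were chosen with earlier results of these data known. limma (version 3.58.1, R 4.3.3; lmFit, eBayes with trend and robust) was run on log2(RPKM + 1), with all 5 days in 1 model and Benjamini-Hochberg adjustment over the 19186 tested transcripts. Fold changes on this scale understate those of low transcripts. Voom used the recovered reads with trimmed-mean scaling. Shares of reads are given without a test. The code was tested on simulated data. Named transcripts are, among members with at least 10 reads in at least 4 day 7 replicates, the 2 highest on day 7, the 2 highest and 2 lowest on day 10 relative to day 7, and up to 2 called in each direction per late comparison. Alternatives were other limits in the rule, other pseudocounts, filters, scalings, libraries and fits, and leaving out each replicate.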

Additional observations from a re-analysis of the deposited data

Results flagged for a closer look

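In 45 groups of 4 to 7 replicates (the members' median and share of reads, and the named transcripts, on 4 days), 7 had a replicate far from the others, where chance flags about 1 in 20 groups (2.25); the groups are not independent. Day 10 replicate 7 was far below its day for ENSBTAT00000026380 (58.7 RPKM) and ENSBTAT00000016392 (24.1 RPKM). Day 13 replicate 2 was above its day in the members' median (2.44 on the log2(RPKM + 1) scale), and day 13 replicate 5 in ENSBTAT00000056421 (126 RPKM). On day 19, replicate 1 stood apart in ENSBTAT00000045971 (577 RPKM), replicate 4 in ENSBTAT00000016392 (0.249 RPKM) and replicate 3 in ENSBTAT00000022731 (0.0576 RPKM); the last 2 rest on 2 reads and 1 read. The members' median in the left-out library labelled day 19 replicate 5 (32.8 RPKM) lay above every other library of its labelled day.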

How the results depend on the processing

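No paired analysis was possible because the labels give no replicate number that days share. The set itself held 292 transcripts with a ratio of 3 in the rule, 102 with 6 and 115 with a day 7 level of 20 RPKM, and 131 to 241 when 1 replicate was left out. With means in place of medians 23.9% kept at least 50% on day 10 and 31.3% stood at 25% or less; without the 3 libraries that stood apart 8.48% kept at least 50%. Leaving out 1 replicate gave 5.81 to 18.8% and 43.8 to 59.6%. These shares are of the set chosen anew under each alternative. The counts of members called are given in the order of main value, then alternatives. Each named alternative is followed by the percentage or number of all transcripts tested under it that were called the same way. The ranges with 1 replicate left out are given without this share and are not read as particular to the members. The denominator is 176 members except in models of 2 days. Lower on day 10 than on day 7: 0, then 25 by voom (0.287%) and 23 without the 3 libraries (0.581%), and 0 to 25 with 1 replicate left out. Lower on day 13 than on day 7: 88, then 58 with a pseudocount of 0.1 (1.31%), 144 by voom (5.21%), 53 with all 28 libraries (1.33%) and 133 without the 3 (4.01%), and 51 to 131 with 1 left out. Lower on day 16 than on day 7: 56, then 88 with quantile normalization (2.95%), 113 by voom (3.3%), 14 of 174 in a model of 2 days (0.323%), 104 with replicates 2 and 3 as 2 samples (3.31%) and 131 without the 3 (5.57%), and 0 to 111 with 1 left out (2 without day 16 replicates 2 and 3). Lower on day 19 than on day 7: 127, then 0 with all 28 libraries (0%), and 88 to 150 with 1 left out. Lower on day 13 than on day 10: 4, then 7 with a pseudocount of 0.1 (0.667%), 20 by voom (2.04%), 0 of 169 in a model of 2 days (0.14%), 2 with all 28 libraries (0.446%) and 13 without the 3 (1.57%), and 1 to 6 with 1 left out. Day 16 against day 13: 2 higher, then 4 with a pseudocount of 0.1 (5.24%) and 8 by voom (2537 of 19186), and 2 throughout with 1 left out; 3 lower, then 6 with quantile normalization (3.67%), 6 by voom (4.57%), 6 with replicates 2 and 3 as 2 samples (4.01%) and 5 without the 3 (5.07%), and 0 to 6 with 1 left out (0 without day 16 replicates 2 and 3). Day 19 against day 13: 2 higher, then 7 by voom (11.3%) and 4 of 124 in a model of 2 days (7.72%), and 2 throughout with 1 left out; 10 lower, then 20 by voom (5.93%), 28 of 124 in a model of 2 days (10.7%) and 1 with all 28 libraries (2.33%), and 7 to 14 with 1 left out. Day 19 against day 16: 0 lower, then 2 by voom (4.65%), and 0 to 1 with 1 left out. The cause of these shifts was not tested. The share of reads differed by -0.297 to -0.0205 percentage points (day 16 less day 13), -0.324 to -0.132 (day 19 less day 13) and -0.191 to 0.0285 (day 19 less day 16) with 1 replicate left out, the last reversed without day 16 replicate 1. Where 1 replicate is left out of day 16, 2 remain and the spread is pooled over days. Depth limits the members with few reads: 142 of 176 had at least 10 reads in at least 4 day 7 replicates.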
